A study of Mus musculus with 2 samples.

Results

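The respiratory chain and the ATP synthase were described at the level of their genes in 1 RNA library from 14837 cells. These cells are a mouse pancreatic ductal adenocarcinoma (PDAC) line of the C57BL/6 strain, and the library came from cells held for 48 h in medium conditioned by fibroblasts of such tumours, called cancer-associated fibroblasts (CAFs). The labels also describe a library from 14837 cells held in medium that 14837 cells themselves had conditioned. Both media were based on DMEM with penicillin (100 U/ml) and fetal bovine serum (10%), and the CAFs used are not described further. One value column of the deposited table carried a name that matched neither library and was not used, so the 2 media were not compared, and the values below are levels after CAF medium. Members were the gene entries whose symbols begin with Nduf, Uqcr, Cox4 to Cox8, Atp5, mt-Nd, mt-Co, mt-Atp or mt-Cytb, plus Cyc1 and without pseudogene symbols ending in -ps. They numbered 103 of 21983 entries, 90 in the nuclear genome, on 19 chromosomes, and 13 in the mitochondrial genome.

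The respiratory chain passes electrons from NADH through complex I, ubiquinone, complex III and cytochrome c to oxygen at complex IV, and pumps protons across the inner mitochondrial membrane. Complex V, the ATP synthase, lets the protons flow back through a rotating ring and uses that turning to make ATP. Mitochondrial DNA encodes the membrane-embedded core of complexes I and IV, cytochrome b of complex III and a pair of complex V subunits, while all other subunits are made from nuclear genes and imported.

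The CAF-medium library held 21269197 counts. Levels are given as counts per 1000000 counts (CPM) and, where genes are set against each other, as CPM per kilobase (kb) of the gene's annotated exons. A single library gives no replicate error, and no test was made. Intervals in parentheses are exact Poisson 95% intervals, which cover counting error only. A count of 0 is given the limit of 3 counts, or 0.141 CPM. Among entries with 10 to 39 counts, 36.9% of 1075 were multiples of 3, against 33.3% of the whole numbers in that range, so the counts may not be single reads and the intervals may be too narrow. Of the markers of ductal epithelium, Krt8, Krt18, Krt19, Krt7 and Cdh1 lay between 370.0 and 1819 CPM, but Epcam had 2 counts. Of 8 fibroblast markers, Col1a2, Col3a1, Dcn and Lum were at 0 and the summed level was 35.8 CPM, of which Pdgfra gave 34.2 CPM. Of 4 leukocyte markers, Cd68 reached 5.69 CPM, Ptprc and Adgre1 had 1 count each and Cd3e was at 0. In a bulk library, fewer cells with a transcript and less RNA per cell cannot be told apart.

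Of the 103 members, 91 had at least 10 counts, where 52.6% of all entries did, and 8 were listed at 0, where 36.6% of all entries were. Per kb, 78 members lay above the median of entries with at least 10 counts (8.14 CPM per kb), where 26.3% of the 21900 entries with a length did. Together the members took 1.93% of all counts. The 13 mitochondrial members took 1.09% and the 90 nuclear members 0.843%.

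The 13 mitochondrial genes fell into 2 sets that were far apart. All are made from long shared precursors, 12 of them from one strand and mt-Nd6 from the other, yet mt-Co1 was 265 times as high per kb as mt-Co2, the next protein gene along. A contiguous run from mt-Co2 to mt-Nd4l was near or below the median entry. Each gene of the run except mt-Atp8 is nearly or wholly repeated in annotated pseudogenes on chromosome 1. The sequences here show how close these copies are. The whole coding sequence of mt-Nd4l without its last 3 bases (GRCm38, chrM:9877-10170, plus strand) is also that of the pseudogene Gm10222 (chr1:24612407-24612700, minus strand), with 294 of 294 bases identical. The first 150 bases of mt-Co2 (chrM:7013-7162, plus strand) are identical in Gm28661 on chromosome 1 (chr1:24615416-24615565, minus strand), while a less similar copy, Gm13341 on chromosome 2 (chr2:22587813-22587962, minus strand), differs at the 2 bases in capitals. The stretch of mt-Co1 (chrM:6330-6449, plus strand) shows where the copy on chromosome 1 begins, with the bases from there on in capitals.
mt-Nd4l: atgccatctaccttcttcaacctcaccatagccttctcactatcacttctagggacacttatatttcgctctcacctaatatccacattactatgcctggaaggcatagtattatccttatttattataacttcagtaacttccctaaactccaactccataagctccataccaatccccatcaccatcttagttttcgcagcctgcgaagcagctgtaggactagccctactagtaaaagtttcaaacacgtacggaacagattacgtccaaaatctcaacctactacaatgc
mt-Co2: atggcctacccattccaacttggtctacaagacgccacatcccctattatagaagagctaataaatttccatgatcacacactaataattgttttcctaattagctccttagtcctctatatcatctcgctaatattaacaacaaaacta
Gm13341: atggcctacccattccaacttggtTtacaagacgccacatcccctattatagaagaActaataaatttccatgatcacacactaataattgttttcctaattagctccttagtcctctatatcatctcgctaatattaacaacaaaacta
mt-Co1: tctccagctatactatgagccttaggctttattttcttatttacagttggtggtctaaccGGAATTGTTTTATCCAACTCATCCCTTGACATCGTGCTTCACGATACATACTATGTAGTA

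The chromosome 1 copies span chr1:24611535-24616197 on the minus strand, or 4663 bases. They are 7 annotated unprocessed pseudogenes, and over 4140 aligned bases they differ from the mitochondrial genes at 2. Besides Gm10222 and Gm28661 they are Gm28439 (bases 1 to 876 of mt-Nd4), Gm28438 (mt-Nd3), Gm28437 (mt-Co3), Gm10925 (mt-Atp6) and Gm29216 (mt-Co1 from base 1063 to its last base, 1545). Another 5 copies on other chromosomes, of mt-Co1, mt-Co2, mt-Nd2 and mt-Nd5, are 92.5% to 97.6% identical. To describe how far a read could belong to more than one place, each gene's longest transcript was cut into windows of 64 bases, and a window was called shared where it also occurs exactly in a transcript of another, non-overlapping gene.

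Apart from mt-Atp8, the genes with few or no shared windows stood high. Among complex I genes, mt-Nd1 had 24187 counts, 1188 CPM per kb (1173 to 1203), with 0% of windows shared. Next to it, mt-Nd2 had 26204 counts, 1187 CPM per kb (1173 to 1201), with 6.56% shared. With their full lengths, these proton-pumping core subunits were at the same level within counting error. With only unshared sequence taken as length, mt-Nd1 was at 1188 and mt-Nd2 at 1270 CPM per kb. Farther along, mt-Nd5 had 18553 counts, 478 CPM per kb (471 to 485), with 2.70% shared. On the opposite strand, mt-Nd6 had 3137 counts, 284 CPM per kb (274 to 294), with 0% shared, and mt-Nd2 was 4.18 times as high per kb. The strand setting of the counting is not given in the sources used here, so reads from the other strand over mt-Nd6 cannot be told apart from its own. For cytochrome b, the redox core of complex III, mt-Cytb had 23322 counts, 958 CPM per kb (946 to 971), with 0% shared.

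Genes shared in part were high as well. The catalytic subunit of complex IV, mt-Co1, was the highest member of either genome, with 118732 of the 231168 counts of all 13 mitochondrial genes, or 3613 CPM per kb (3593 to 3634). Of its windows 44.1% were shared, and the 1062 bases before the chromosome 1 copy begins lie outside that copy. The complex I subunit mt-Nd4 had 16557 counts, 565 CPM per kb (556 to 574), with 61.4% shared.

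The remaining 6 genes were low. Of complex IV, mt-Co2, which takes electrons from cytochrome c, had 198 counts, 13.6 CPM per kb (11.8 to 15.6), with 100% of windows shared. The third core subunit, mt-Co3, had 146 counts, 8.76 CPM per kb (7.39 to 10.3), with 97.8% shared. Of complex V, mt-Atp6, the subunit that carries the proton channel, had 114 counts, 7.87 CPM per kb (6.49 to 9.45), with 100% shared. Of complex I, mt-Nd4l had 10 counts, 1.58 CPM per kb (0.759 to 2.91), with 100% shared, and mt-Nd3 had 8 counts, 1.08 CPM per kb (0.467 to 2.13), with 94.4% shared. These 5 genes are those with over 90% of windows shared, and mt-Nd6, the lowest of the counted genes with under 10% shared, was 20.9 times as high per kb as mt-Co2, the highest of these 5.

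The small complex V gene mt-Atp8 had 0 counts, and no window of it was shared with an annotated transcript of another gene. It lies at chrM:7766-7969 between mt-Co2 and mt-Atp6, and 21.1% of its bases overlap mt-Atp6. On chromosome 1 the interval between the end of Gm10925 (24614651) and the start of Gm28661 (24614885) holds no annotated copy. It lies between the copies of mt-Atp6 and mt-Co2, the neighbours of mt-Atp8. Sequence outside annotated transcripts was not searched, so whether mt-Atp8 is also repeated there is not known. How reads with several matches were handled is not given in the sources used here, none of the pseudogenes named above is an entry of the table, and the part that shared sequence plays in the low counts was not tested. Across the table, 95.7% of 576 protein-coding entries with over 90% of windows shared had under 10 counts, against 42.4% of 15721 with none shared. Silent genes were not left out of either group, and other differences between the groups were not examined. As the handling of reads with several matches is not known, the levels of mt-Co2, mt-Co3, mt-Atp6, mt-Nd3 and mt-Nd4l are given as uncertain.

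**Figure D1:**
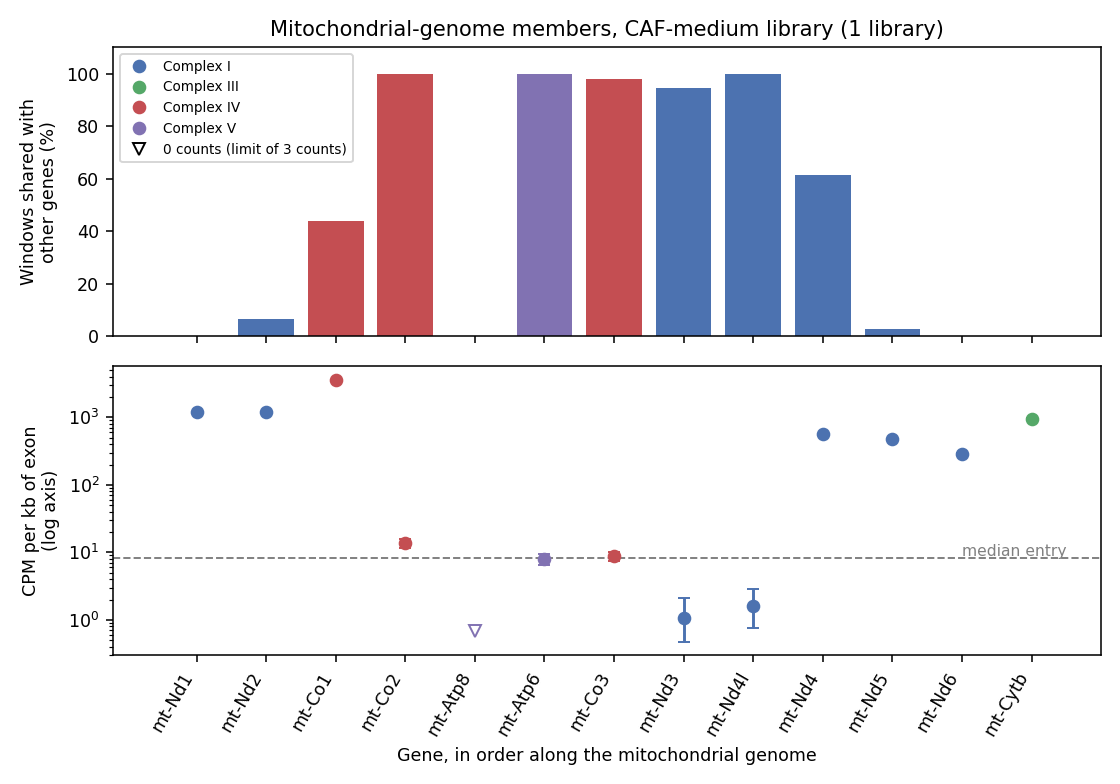
The 13 mitochondrial genes of the CAF-medium library in their order along the genome, coloured by complex. The upper panel gives the percent of 64-base windows shared with other annotated genes, and the lower panel gives CPM per kb of exon on a log axis with exact Poisson 95% intervals, the open triangle marking the 3-count limit for mt-Atp8 and the dashed line the median entry at 8.14. Genes with over 90% of windows shared lie between 1.08 and 13.6 CPM per kb, and the counted genes with under 10% shared lie between 284 and 1188.

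Set against the nuclear genome, the 5 counted mitochondrial genes with under 10% of windows shared had a median of 958 CPM per kb. The 70 nuclear-encoded subunits with at least 10 counts had a median of 51.8, so the former was 18.5 times higher. The ratio was 11.4 with the length of the principal transcript, the annotation's main form, in place of all exons. Where several transcripts ranked equally as main form, the shortest was taken, which gives the highest value per kb among them. Over all exons, the ratio was 17.2 with the same limit on sharing in both genomes. With all 11 mitochondrial members that had at least 10 counts it was 9.23. The mt-Atp8 gene, at 0, is in neither mitochondrial median. The 73 nuclear subunits leave out assembly factors, tissue-restricted isoforms and the coupling factor Atp5s. Of these subunits, 64 lay above the median entry, where 26.3% of all entries did. The principal transcripts of the subunits are short, with a median of 714 bases against 2791 for protein-coding entries with at least 10 counts.

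**Figure D2:**
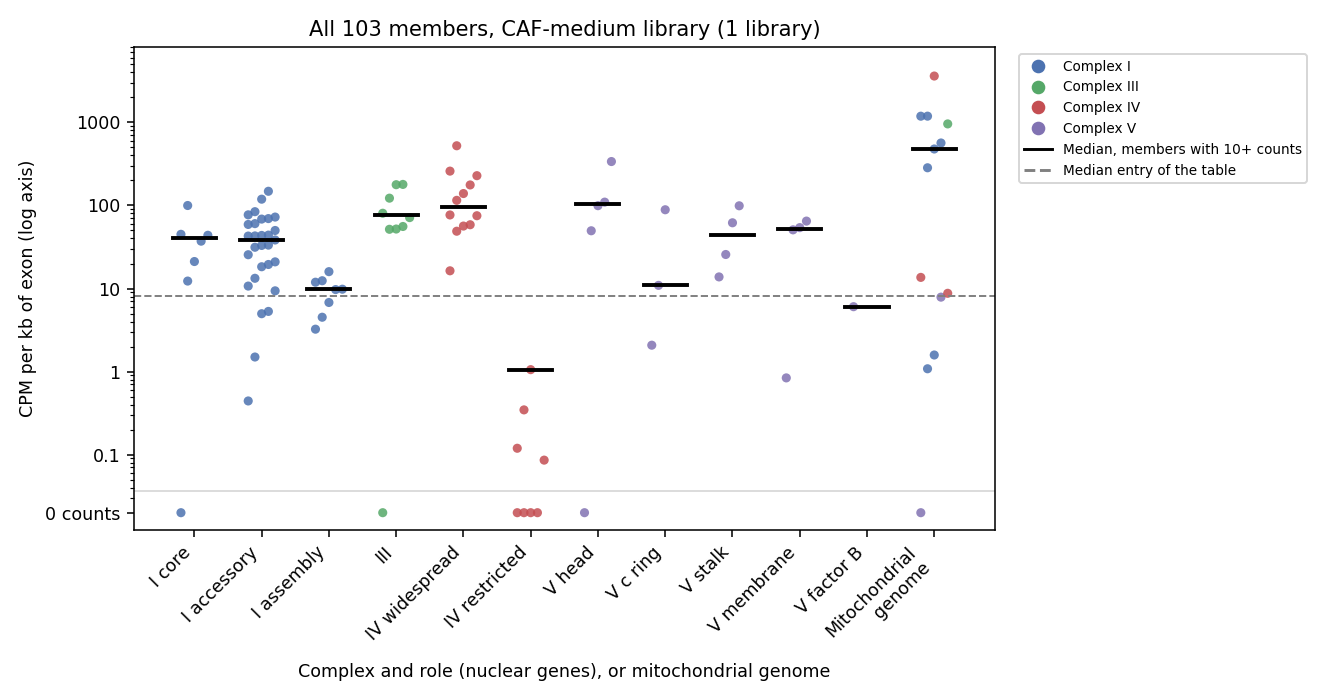
CPM per kb of exon on a log axis for all 103 members in the CAF-medium library, grouped by complex and role for nuclear genes and in 1 column for the mitochondrial genome, with members at 0 counts on the lowest line. Black bars are medians of members with at least 10 counts and the dashed line is the median entry. The assembly factors of complex I have a median of 9.76 CPM per kb, and every restricted isoform lies below every widely expressed subunit of complex IV.

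Complex I was the lowest of the complexes per kb among nuclear members. The 43 of its 44 nuclear members with at least 10 counts had a median of 31.4 CPM per kb, with 40.4 for 6 counted core subunits, 38.4 for 29 accessory subunits and 9.76 for 8 assembly factors, the Ndufaf genes. The assembly factors ranged from 3.24 to 15.95 CPM per kb and help to build the complex without staying in it. The core subunits form the arm in the matrix that takes electrons from NADH and hands them to ubiquinone over a chain of iron-sulfur clusters. Ndufs7, an iron-sulfur subunit, had 772 counts, 21.1 CPM per kb (19.7 to 22.7). At the NADH end, Ndufv1, which holds the flavin, had 2450 counts, 43.7 (42.02 to 45.5), and the iron-sulfur subunit Ndufv2 had 2051 counts, 44.9 (43.0 to 46.9). Over all exons, the intervals of Ndufv1 and Ndufv2 overlap. Over the principal transcript, Ndufv1 was at 69.3 and Ndufv2 at 56.8 CPM per kb, so their order depends on the length used. The iron-sulfur subunit Ndufs8 had 1020 counts, 37.1 CPM per kb (34.9 to 39.5). The largest subunit, Ndufs1, had 2114 counts but only 12.3 CPM per kb (11.8 to 12.8) over all exons and 38.4 over the principal transcript. Ndufs3 (chr2:90894634-90904827, minus strand), a subunit of the same arm, was listed at 0, with 29.0% of windows shared with the processed pseudogene Gm12251.

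Accessory subunits of complex I, which surround the core, spread over 335-fold per kb. The highest were Ndufa2 at 148 CPM per kb (141 to 155), the X-linked Ndufb11 at 119 (114 to 124) and Ndufa7 at 84.1 (81.3 to 87.1). At the other end, Ndufb2 (chr6:39592574-39603382, plus strand) had 53 counts, 0.443 CPM per kb (0.332 to 0.579), with 0% of windows shared. Ndufb4 had 61 counts, 1.497 CPM per kb (1.145 to 1.92), with 36.8% of windows shared, mainly with its processed copy Ndufb4c. Ndufab1, the acyl carrier protein that also serves mitochondrial fatty acid synthesis, had 728 counts and 4.97 CPM per kb, and Ndufb5 had 563 counts and 5.30. Over the principal transcript these values were 24.2 and 24.5, those of Ndufb2 and Ndufb4 were 5.48 and 2.95, and Ndufa7, at 291, stood above Ndufa2. Ndufab1 shared 29.4% of the windows of its principal transcript, with Gm4459 and Ndufab1-ps.

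Complex III moves electrons from ubiquinol to cytochrome c. Of its 9 nuclear members, 8 lay above the median entry, where 26.3% of all entries did. The median of the 8 was 76.0 CPM per kb. The redox subunits of complex III were both well counted. Cyc1, cytochrome c1, had 5606 counts, 122 CPM per kb (119 to 126), and the Rieske iron-sulfur protein Uqcrfs1 had 2069 counts, 71.4 (68.3 to 74.5). Among the small accessory subunits, Uqcr10 at 179 CPM per kb (172 to 187) and Uqcrq at 178 (174 to 182) were highest, followed by the hinge protein Uqcrh at 80.5. The lowest counted members were Uqcr11 at 51.6, Uqcrb at 52.0 and Uqcrc2 at 55.8 CPM per kb, and counted nuclear members differed by 3.47-fold. Over the principal transcript they differed by 11.3-fold, from Uqcrfs1 at 71.4 to Uqcrq at 804. Uqcrb shared 36.7% of the windows of its principal transcript with processed pseudogenes. The core proteins Uqcrc1 and Uqcrc2 form a pair in every complex III, yet Uqcrc2 had 3029 counts and Uqcrc1 (chr9:108936633-108949623, plus strand) was listed at 0, with 0% of windows shared.

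Complex IV reduces oxygen to water, and its widely expressed subunits were among the highest nuclear members. Ndufa4, which is found in complex IV despite its name, is counted among them. All 12 lay above the median entry, where 26.3% of all entries did. The median of the 12 was 96.0 CPM per kb. The highest nuclear member per kb of exon was Cox8a, one of the smallest subunits, with 6886 counts and 523 CPM per kb (511 to 536). Per kb of principal transcript it was at 589, below Uqcrq at 804 and Atp5b at 747. Cox4i1, which takes part in regulation by ATP, followed in complex IV with 8537 counts and 259 (253 to 265), then Cox6a1 at 228 (221 to 236) and Cox6b1 at 177 (170 to 183). The lowest were Cox7c at 16.3 (14.8 to 18.0), Cox6c at 48.9, Cox7b at 56.5 and Cox5b at 58.6 CPM per kb. Over the principal transcript Cox6c was at 347, above Cox6a1 at 281 and Cox6b1 at 202. Of Cox7c, 50% of the windows of the principal transcript were shared, with Gm10012 and Gm12338. For Cox5b the share was 19.6%, with Gm11273, and for Cox6c it was 17.9%, with Cox6c2.

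Isoforms of complex IV known from particular tissues were near 0. The 8 restricted isoforms had 21 counts in all. None lay above the median entry, where 26.3% of all entries did, and 4 were listed at 0, where 36.6% of all entries were. Of the forms known from heart and skeletal muscle, Cox7a1 had 12 counts, Cox6a2 had 5 and Cox8b had 0. Of those known from testis, Cox6b2, Cox7b2 and Cox8c had 0 each. Cox4i2, known from lung, and Ndufa4l2, which responds to low oxygen, had 2 counts each. No windows of these genes were shared.

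In all 8 pairs the widely expressed isoform was the higher one. Cox7a2 was 71.3 times as high per kb as Cox7a1 (40.7 to 138, exact binomial interval on the counts), and Cox6a1 was 660.2 times as high as Cox6a2 (283 to 2035). With 2 counts in the lower member, Cox4i1 was 2170.1 times as high as Cox4i2 (601 to 17922), and Ndufa4 was 1619.9 times as high as Ndufa4l2 (448 to 13381). Against members at 0, taken at the limit of 3 counts, Cox8a was at least 1335-fold higher than Cox8b and at least 1698-fold higher than Cox8c. Cox7b was at least 217-fold higher than Cox7b2. Cox6b1 was at least 667-fold higher than Cox6b2 with the principal transcript and at least 1387-fold higher with all exons. These bounds cover counting error only and take each 0 as a true low count, which was not tested. Atp5a1 and Uqcrc1 were also listed at 0 with 0% of windows shared, beside well counted partners of their complexes. With the principal transcript the ratio of Cox4i1 to Cox4i2 was 4165 and that of Ndufa4 to Ndufa4l2 was 4222. In contrast, Cox7a2l, a relative of Cox7a2, was abundant at 115 CPM per kb, and Cox7a2 was 0.653 times as high (0.614 to 0.694). Of the windows of the principal transcript of Cox7a2l, 17.2% were shared with the processed pseudogene Gm6969.

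**Figure D3:**
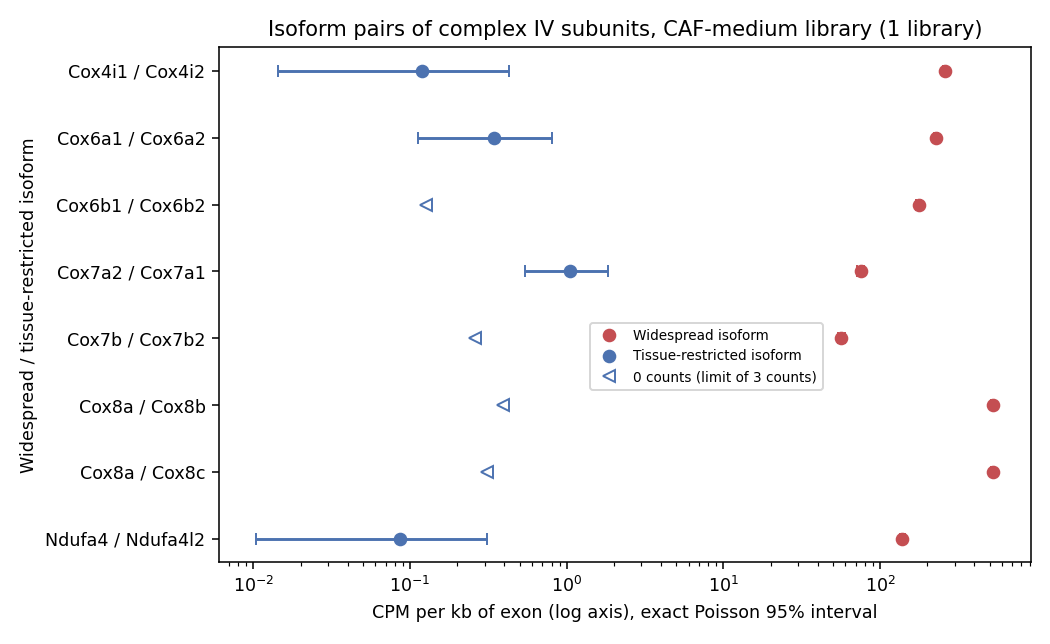
CPM per kb of exon on a log axis for the 8 pairs of a widely expressed (red) and a tissue-restricted (blue) complex IV isoform in the CAF-medium library, with exact Poisson 95% intervals. Open triangles mark the 3-count limit of isoforms listed at 0. Every widely expressed isoform lies above 50 CPM per kb and every restricted isoform with counts at or below 1.05.

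The promoters of the Cox8 pair are shown because the pair lies at the ends of the range, with each CG dinucleotide, the site of DNA methylation, in capitals. They are the 250 bases before and 50 bases after the gene start in RefSeq (GRCm38.p6), chr19:7217567-7217866 on the minus strand for Cox8a and chr7:140900397-140900696 on the minus strand for Cox8b.
Cox8a: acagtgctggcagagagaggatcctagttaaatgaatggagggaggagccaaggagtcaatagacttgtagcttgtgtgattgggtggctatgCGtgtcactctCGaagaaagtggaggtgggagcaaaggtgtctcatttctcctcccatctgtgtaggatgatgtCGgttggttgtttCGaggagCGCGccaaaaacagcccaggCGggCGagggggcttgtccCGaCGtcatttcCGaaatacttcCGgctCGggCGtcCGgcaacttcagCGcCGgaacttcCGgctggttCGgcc
Cox8b: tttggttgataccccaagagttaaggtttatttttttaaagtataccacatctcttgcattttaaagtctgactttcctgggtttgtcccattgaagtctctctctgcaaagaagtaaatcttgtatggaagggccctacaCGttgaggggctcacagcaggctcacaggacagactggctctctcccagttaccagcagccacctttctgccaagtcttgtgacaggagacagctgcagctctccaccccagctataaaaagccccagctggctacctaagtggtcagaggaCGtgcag

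The Cox8a promoter has 19 CG and the Cox8b promoter 2. Of the 103 members, 71 had a promoter in the RefSeq table, with a median of 19 CG against 14 over all 16501 promoters. The 4 restricted isoforms among them had 2 to 10 CG, but the widely expressed Cox7b had 5 and its restricted partner Cox7b2 had 10. The core CGCATGCG of the site for NRF1, a factor known to drive respiratory genes, was found on either strand in 10 of 71 (14.1%) against 2.65% of all promoters. The core CCGGAAG bound by ETS factors was found in 15 of 71 (21.1%) against 12.2%. These are counts of letters in the window and were not tested.

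Complex V is built of a catalytic head, a stalk, a ring of c subunits and other membrane subunits. In the head, Atp5b, which carries the catalytic sites, had 30437 counts, 338 CPM per kb (334 to 342), the highest count of any nuclear member. The rotor subunit Atp5c1 had 4032 counts, 99.4 CPM per kb (96.3 to 102), and Atp5d had 4495 counts, 109.6 (106 to 113). Atp5a1, the partner of Atp5b in the head, was listed at 0 with 0% of windows shared. In the stalk that holds the head still, Atp5f1 was at 99.0 CPM per kb (97.0 to 101) and Atp5j at 13.8 (12.9 to 14.7). Atp5f1 shared 18.6% of the windows of its principal transcript, with Gm12231. The membrane subunit Atp5l had 115 counts and 0.839 CPM per kb (0.693 to 1.007), or 9.94 over the principal transcript, of which 64.5% of windows were shared. Of the windows of its longest transcript, 5.37% were shared.

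The c ring is a case where 3 genes encode the same mature protein with different import sequences. Atp5g3 gave 77.2% of the c-ring counts with 4117, Atp5g1 21.4% with 1140 and Atp5g2 1.39% with 74. Per kb of exon, Atp5g1 was 0.123 times as high as Atp5g3 (0.115 to 0.131) and Atp5g2 was 0.0234 times as high (0.0183 to 0.0294). The first ratio was 0.0506 with the longest transcript, 0.277 on counts alone and 0.332 with the principal transcript. Atp5g1 was 5.25 times as high as Atp5g2 (4.15 to 6.74), a ratio that was 2.46 with the longest transcript, 11.4 with the principal transcript and 15.4 on counts alone. Of the windows of the principal transcripts, 0% were shared for Atp5g3, 61.8% for Atp5g1, with the pseudogenes Gm10039 and Gm12337, and 100% for Atp5g2, with Gm10175 and Gm10231. Of the windows of the longest transcripts, 8.25% were shared for Atp5g1, 9.09% for Atp5g2 and 0% for Atp5g3. The c-ring gene with the most counts was the one with no shared window, and the part of sharing in this order was not tested.

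The zeros among the nuclear subunits stand beside partners of the same complex that were well counted. Ndufs3, Uqcrc1 and Atp5a1 each encode a conserved protein of their complex. Of all protein-coding entries with no shared windows, silent genes included, 30.4% were listed at 0. The counts of 0 are given as listed, and whether these genes were expressed was not tested. Sharing was also measured over all nuclear subunits. Of 57 with under 10% of windows of the principal transcript shared, 53 lay above the median entry, and of 16 with 10% or more, 11 did. The share of all entries was 26.3%. The medians of these groups per kb of principal transcript were 83.0 and 85.2, and that of the 5 with 50% or more was 34.2. Apart from transcripts shared by sequence, 13 members had at least 10% of exonic bases that other genes' exons also cover, counting both strands, with 65.6% for Ndufaf2, and their counts may include reads of those genes.

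**Figure D4:**
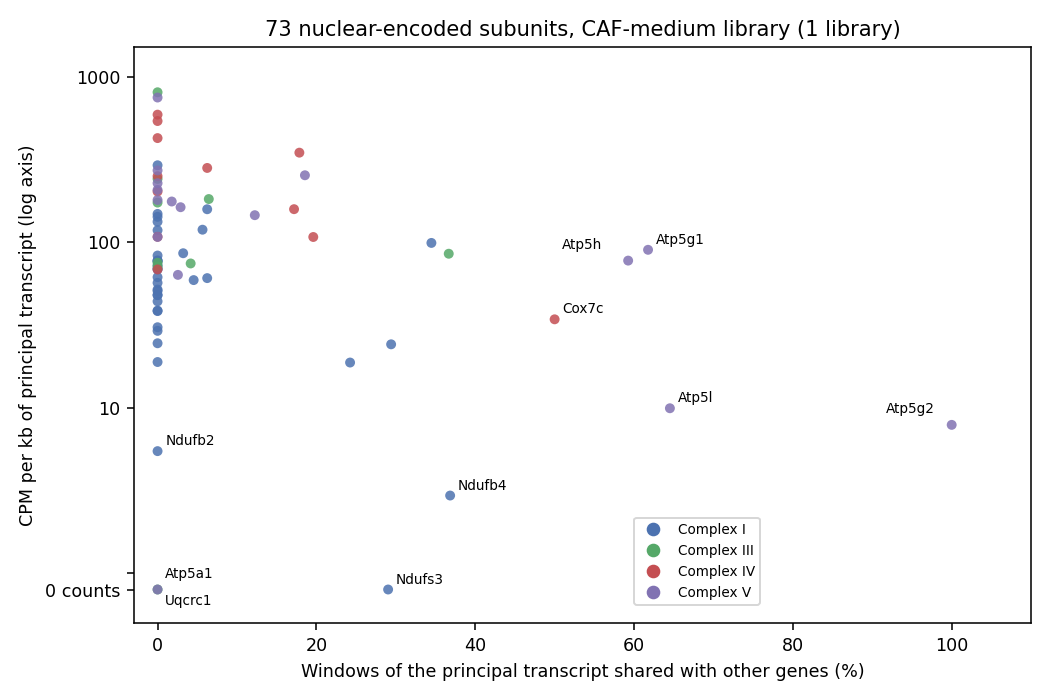
Each point is 1 of the 73 nuclear-encoded subunits in the CAF-medium library, coloured by complex, with the percent of 64-base windows of its principal transcript shared with other genes on the x axis and CPM per kb of principal transcript on a log y axis. Subunits listed at 0 are on the lowest line. Ndufb2, Uqcrc1 and Atp5a1 are low or at 0 with no shared window, and Atp5g2 and Atp5l are low with many. Other subunits with many shared windows stand higher, Atp5g1 at 89.9, Atp5h at 77.4 and Cox7c at 34.2.

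Genes around the complexes were read from lists. Complex II, succinate dehydrogenase, joins the citrate cycle to the chain and pumps no protons, and its 4 genes all lay above the median entry, from Sdhd at 148 and Sdha at 53.6 to Sdhb at 44.8 and Sdhc at 40.8 CPM per kb. Of 18 electron-carrier genes, for ubiquinone synthesis, cytochrome c and electron transfer flavoprotein, 7 did, where 26.3% of all entries did, led by Etfa at 57.96 and Coq10b at 28.4 CPM per kb. Coq8a, a kinase-like protein of ubiquinone synthesis, had 12 counts and Cyct, the cytochrome c of testis, 0. The cytochrome c of other tissues, Cycs, chosen after its value was seen, had 195 counts with 27.1% of windows shared.

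The lists of assembly genes had lower medians than the subunits of their complexes. The complex V list holds more than assembly factors, namely the inhibitor Atpif1 and Usmg5, a protein of the synthase itself. For complex I, 7 of 10 genes outside the Nduf family were above the median entry, where 26.3% of all entries were. Tmem70 at 45.6 and Dmac1 at 27.2 CPM per kb were highest, and Tmem126b at 5.01 and Nubpl, which delivers iron-sulfur clusters, at 1.5 were lowest. For complex III, 4 of 6 were above it, with Uqcc2 at 87.1 and Uqcc3 at 14.4 CPM per kb highest. Bcs1l, which inserts the Rieske protein, at 7.23 and Lyrm7 at 0.158 were lowest and below it. For complex IV, 11 of 25 were, led by Cox14 at 112.9 and Coa3 at 38.4 CPM per kb. The copper chaperone gene Sco2 and the assembly genes Cox20 and Pet117 were listed at 0. For complex V, 4 of 5 were, with the inhibitor Atpif1 at 57.9, Tmem70 at 45.6, Usmg5 at 14.4 and the assembly factor Atpaf1 at 1.62 CPM per kb. Atpaf1 shared 29.0% of its windows with other genes. Tmem70 stands on both the complex I and the complex V list. The medians of the counted members were 12.0, 9.15, 8.71 and 18.0 CPM per kb for complexes I, III, IV and V, against 8.14 for all entries with at least 10 counts.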

How the data were processed

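RNA from the CAF-medium library was analysed as deposited. The authors deposited unscaled whole-number counts, 1 per gene symbol. HISAT2 2.1.0, StringTie and build mm10 are named, per the submitters' processing notes, with no role given. Not given in the sources used here are the counting program, strand setting, handling of multiple matches, RNA selection and annotation. Of 2 value columns, 1 matched the labels of neither library and was not used, so the planned comparison of media was not made.

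Counts were divided by the library total and multiplied by 1000000. Lengths, positions and shared windows (64 bases, every 16) came from GENCODE M21 on GRCm38, to which 21900 symbols (99.6%) matched, and promoters from RefSeq. Of 107 annotated symbols that meet the rule, 4 pseudogenes were not entries of the table. Intervals were checked only on counts simulated with Poisson error, which checks the calculation and not whether these counts have such error. Alternatives were the scaling total, the count minimum, the length, and leaving out shared or non-subunit members.

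Named with values were mitochondrial members, members under 10 counts, isoform pairs, the 4 highest and 4 lowest nuclear subunits per complex per kb, redox and catalytic subunits, and the 2 highest and 2 lowest of each list. A gene that meets this rule is not reported here. The members and lists were chosen with earlier results of these data known. Tools were Biopython 1.88, scipy 1.17.1, numpy 2.4.6, matplotlib 3.10.9 and pandas 2.3.3 in Python 3.11.15.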

Additional observations from a re-analysis of the deposited data

How the results depend on the processing

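The median of the nuclear members, 46.9 CPM per kb, was 54.2 with the 100 highest entries left out of the total, 42.9 with no minimum, 49.8 for members with 100 counts or more, 48.9 for members with under 10% of windows shared, 51.6 without assembly factors and restricted isoforms and 57.1 with the longest transcript. With the principal transcript, added after seeing the data, it was 75.9, and 49.6 for members with under 10% of that transcript shared. The median of the mitochondrial members, 478 CPM per kb, was 552 without the 100 highest entries in the total, 284 with no minimum, 522 for members with 100 counts or more, 958 for members with under 10% of windows shared and, added after seeing the data, 1073 over unshared windows alone. Leaving the mitochondrial genes out of the total gave 47.4 and 483. The 78 of 103 members above the median entry became 75 with the longest and 77 with the principal transcript. They became 93 with no minimum and 74 with a minimum of 100 counts, settings that also change the entries from which the median is taken. The share of 26.3% over all entries holds for the reported setting only. It was not computed for these alternatives, so 93 cannot be read as a stronger result than 78. Above the median entry were 67 of the 86 members with under 10% of windows shared and 73 of 87 without assembly factors and restricted isoforms. In 8 of 8 pairs the widely expressed isoform stayed higher with each length and on counts alone. Depth limits the genes under 10 counts, whose ratios have wide intervals. No paired analysis was possible because 1 library was used.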

Other observations

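The list of mitochondrial transcription factors and their regulators was counted in full. All 15 genes had at least 10 counts and 9 lay above the median entry per kb, where 26.3% of all entries did. Yy1, a transcription factor with many targets, was highest at 52.9 CPM per kb, followed by the coactivator Pprc1 at 26.8. Tfam, which packs mitochondrial DNA and starts its transcription, was at 22.3 CPM per kb, and the mitochondrial RNA polymerase Polrmt was at 9.09. The coactivators Ppargc1a and Ppargc1b, known for raising respiratory genes in muscle and brown fat, were lowest, with 105 counts (0.749 CPM per kb) and 39 counts (0.460 CPM per kb). Tfam and Polrmt were chosen after their values were seen.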
